A study of Homo sapiens with 10 samples.

Results

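Transcripts of 10 inflammatory cytokines and chemokines whose genes are known targets of NF-kB were compared across 5 untreated human prostate cancer cell lines. The genes were picked by name, and all 10 were found among the 60642 gene symbols of the deposited expression table. They were the CXC chemokines CXCL8, CXCL1, CXCL2 and CXCL3, the CC chemokine CCL2, and the cytokines IL6, LIF, CSF2, IL1A and IL1B. Bulk RNA-seq was performed on LNCaP (clone FGC), DUCAP, VCAP, DU145 and PC3, each as a pair of biological repeats (10 samples). No sample had received a drug, and each was harvested in exponential growth from phenol-red-free RPMI with fetal bovine serum, given as 5% in the methods of the study and as 5 to 10% in the sample labels. Each group is a single established line grown alone, so a difference between groups is one between these lines. The study groups LNCaP, DUCAP and VCAP apart from DU145 and PC3 by androgen signaling, and that grouping was used here.

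NF-kB is a family of dimeric transcription factors built from the subunits RELA, RELB, REL, NFKB1 and NFKB2. In resting cells the dimers are held back by inhibitor proteins such as NFKBIA. Signals from receptors for TNF, IL1 or bacterial products activate kinases that remove the inhibitor, and the dimers then bind kappa-B sites in promoters of cytokine and chemokine genes. Several of the products, IL1 among them, signal back to NF-kB in the cells that make them or in their neighbours.

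The values are TPM, the abundance of a gene's transcripts per unit of length as a share of the sample total, so that levels of different genes can be set side by side. TPM do not keep the number of reads, so the depth behind each value is unknown. Column sums lay between 982880 and 991998, and 17 housekeeping genes were above 0 in every sample, the lowest being TBP at 10.36 TPM. Mitochondrial transcripts took 32.1 to 36.0% of a library in DUCAP and VCAP and 12.7 to 22.5% in LNCaP, DU145 and PC3. Between the DU145 repeats a gap of 2-fold or more in TPM + 1 was seen in 9.48% of the 17520 genes tested, against 0.902 to 2.12% in the other lines. The line markers followed the labels: KLK3 was at 28.3 TPM or more in every sample of LNCaP, DUCAP and VCAP and at 0.77 or less in DU145 and PC3, ERG reached 122 to 199 TPM in DUCAP and VCAP and at most 0.19 elsewhere, and the epithelial genes KRT8, KRT18 and EPCAM were present in all samples. Of 10 leukocyte markers, CD3E and MS4A1 were at 0 in every sample and PTPRC at 0.12 TPM or less. The summed level of the 10 was 0.25 to 3.90 TPM in LNCaP, DUCAP and VCAP, 75.4 to 105 in DU145 and 34.8 to 39.3 in PC3, and CD68, a lysosomal protein, made up nearly all of it in DU145 and PC3. Of 8 endothelial and fibroblast markers the summed level was 1.16 to 12.4 TPM in LNCaP, DUCAP, VCAP and DU145 and 33.2 and 39.8 in PC3, mostly COL1A1. The part of either sum in the results was not tested. In bulk samples, fewer cells with a transcript and less RNA per cell cannot be told apart.

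The promoter sequences of 5 genes are shown because kappa-B letters were found in them. RefSeq promoter windows (build GRCh38.p14, 250 bases before to 50 bases after the transcription start) were available for 8 of the 10 genes, among them IL1A with 2 starts. The 150 bases before the start are printed 5′ to 3′ on the gene's strand, and capitals mark kappa-B, AP-1 and TATA letters.
CXCL8, chr4:73740419-73740568, plus strand: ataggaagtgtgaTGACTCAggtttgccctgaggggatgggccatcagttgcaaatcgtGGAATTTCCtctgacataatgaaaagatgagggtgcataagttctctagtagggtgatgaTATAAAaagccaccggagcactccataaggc
CXCL1, chr4:73869243-73869392, plus strand: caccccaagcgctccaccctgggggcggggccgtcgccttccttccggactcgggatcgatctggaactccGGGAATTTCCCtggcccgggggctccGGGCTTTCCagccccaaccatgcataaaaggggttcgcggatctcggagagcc
CXCL2, chr4:74099196-74099345, minus strand: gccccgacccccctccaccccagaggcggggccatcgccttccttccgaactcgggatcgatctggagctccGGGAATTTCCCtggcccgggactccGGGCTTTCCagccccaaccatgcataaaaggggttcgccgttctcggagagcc
CXCL3, chr4:74038690-74038839, minus strand: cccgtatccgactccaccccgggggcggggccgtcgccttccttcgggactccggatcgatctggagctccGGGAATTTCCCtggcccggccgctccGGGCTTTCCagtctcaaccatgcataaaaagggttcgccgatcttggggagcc
IL6, chr7:22727050-22727199, plus strand: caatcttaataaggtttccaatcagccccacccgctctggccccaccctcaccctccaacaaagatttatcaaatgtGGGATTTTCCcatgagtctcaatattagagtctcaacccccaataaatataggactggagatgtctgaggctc

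The consensus kappa-B motif was present in 4 of the 8 genes (CXCL1, CXCL2, CXCL3 and IL6), against 11.3% of all 35116 RefSeq windows of the same 300 bases on either strand. A shorter form, GGNNTTTCC, overlaps the consensus and also matched CXCL8, which made 5 genes against 6.26% of all windows. In CXCL1 and CXCL3 the consensus match lay at −79 to −70 and a further GGNNTTTCC match at −53 to −45, and CXCL2 had them at −78 to −69 and −53 to −45. In CXCL8 the match lay at −91 to −83, with the AP-1 letters TGANTCA at −137 to −131 and TATAAA at −31 to −26, and in IL6 the match lay at −73 to −64. TGANTCA was found in CXCL8 and IL1A and in 7.71% of all windows, the C/EBP letters TTGCNNAA in IL1B, CXCL2 and IL6 and in 10.5%, and TATAAA in CXCL8 and IL1A and in 11.5%. CSF2 held none of the letters searched. The 150-base stretches of CXCL1, CXCL2 and CXCL3 were 86.1 to 88.7% identical to each other and 39.7 to 43.3% identical to that of CXCL8. These matches describe the letters and are not measured sites.

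**Figure D1:**
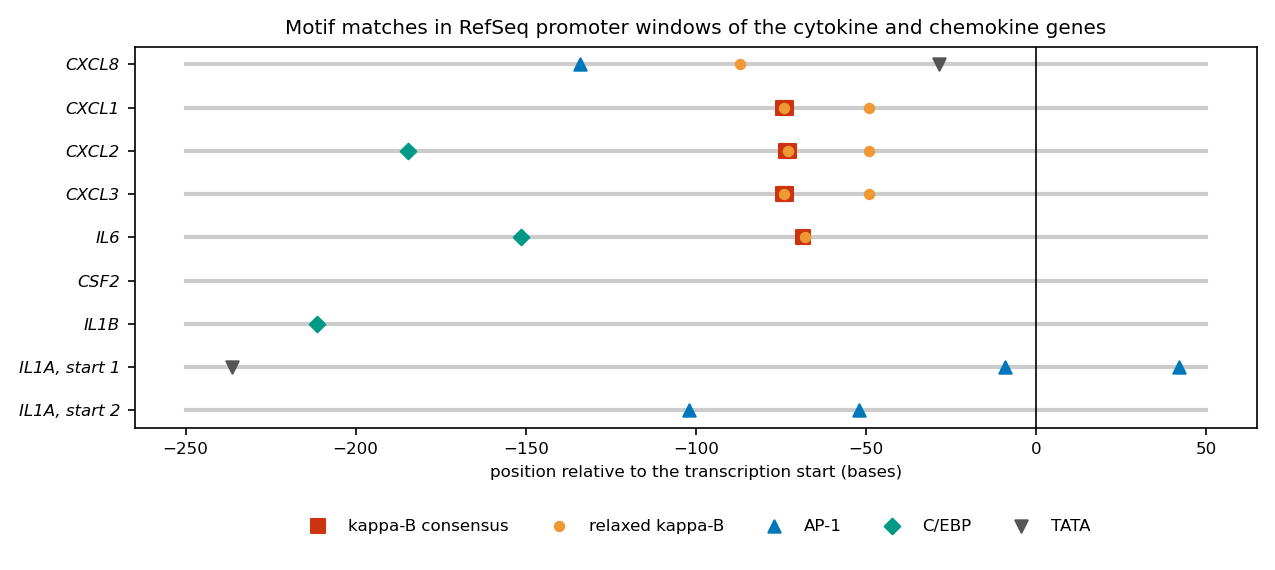
Positions of motif matches (symbols) in RefSeq promoter windows from 250 bases before to 50 bases after the transcription start (vertical line, horizontal axis in bases) for the 8 genes with a window. The kappa-B matches of CXCL1, CXCL2, CXCL3, CXCL8 and IL6 lie within 91 bases before the start, and CSF2, IL1A and IL1B have none.

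CXCL8, a chemoattractant for neutrophils, was nearly absent from LNCaP, DUCAP and VCAP and abundant in DU145. DU145 held 29.36 and 47.41 TPM and PC3 held 14.83 and 13.85. VCAP stood at 0.07 and 0.06 TPM, DUCAP at 0.11 and 0, and LNCaP at 0 in both repeats. Every DU145 and PC3 sample lay above every sample of the other lines, and both DU145 samples lay above both of PC3. On the log2(TPM + 1) scale, the mean of DU145 and PC3 exceeded that of the other lines by 4.54 ± 0.14 (SE, adjusted p = 3.9e-08, limma). PC3 was lower than DU145 by a difference of −1.32 ± 0.22 (SE, adjusted p = 0.0013, limma). Genes listed at 0 in a line give no fold against it, and the size of such a difference depends on the added 1 TPM.

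CXCL2 showed the same order of lines as CXCL8 with a wider step. DU145 held 40.41 and 29.64 TPM, PC3 held 9.4 and 3.13, and the 6 samples of LNCaP, DUCAP and VCAP were all listed at 0. The groups did not overlap, and PC3 repeat 2 was the lowest of the 4 samples with the transcript. The difference between DU145 and PC3 and the other lines was 3.93 ± 0.24 (SE, adjusted p = 1.4e-06, limma), and that of PC3 against DU145 was −2.44 ± 0.37 (SE, adjusted p = 0.00084, limma).

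CXCL1, whose promoter is the closest to that of CXCL2, had the opposite order of DU145 and PC3. PC3 held 16.8 and 31.64 TPM and DU145 held 4.83 and 8.83. VCAP repeat 1 was at 0.11 TPM, and the other 5 samples of LNCaP, DUCAP and VCAP were listed at 0. Both PC3 samples lay above both DU145 samples. The differences were 3.73 ± 0.20 for DU145 and PC3 against the other lines (SE, adjusted p = 7.8e-07, limma) and 1.67 ± 0.31 for PC3 against DU145 (SE, adjusted p = 0.0026, limma).

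CXCL3 had the lowest mean level of the 4 CXC chemokines in both DU145 and PC3. PC3 held 4.64 and 2.74 TPM, DU145 held 2.53 and 2.21, VCAP held 0.16 and 0.11, and LNCaP and DUCAP were listed at 0. It was higher in DU145 and PC3 than in the other lines by 1.91 ± 0.12 (SE, adjusted p = 1.7e-06, limma). PC3 and DU145 differed by 0.45 with a 95% confidence half-width of 0.42 (adjusted p = 0.075, limma), which did not pass the threshold of 0.05. CXCL1, CXCL2 and CXCL3 share short stretches of transcript: 5.33, 10.1 and 5.26% of their 50-base windows occurred in another of these 3 genes in the Gencode v44 transcripts, and no 100-base window did. RSEM divides reads that fit several genes, so how reads were split between them is uncertain to that extent.

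CCL2, a chemoattractant for monocytes, ran the other way. VCAP held 0.8 and 2.59 TPM, DUCAP 0.42 and 0.14, and LNCaP 0.2 and 0. DU145 was listed at 0 in both repeats and PC3 at 0 and 0.08. VCAP was highest, and the lines that held the CXC chemokines had the lowest means, although LNCaP repeat 2 was also at 0. All values but that of VCAP repeat 2 were under 1 TPM. CCL2 did not reach 1 TPM in 2 samples and was therefore not tested.

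**Figure D2:**
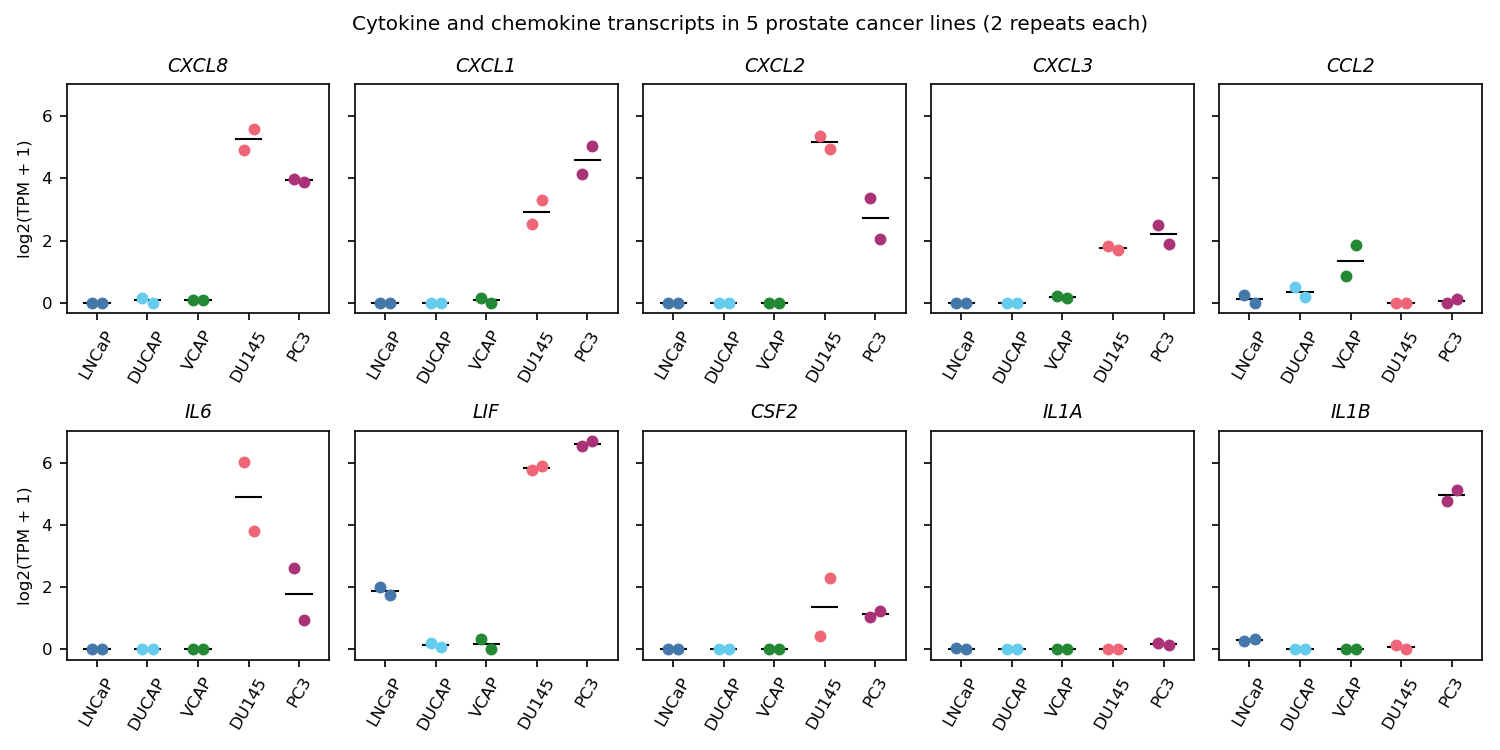
Levels of the 10 transcripts as log2(TPM + 1) in each sample (points, 2 biological repeats per line), with the line mean as a black bar. The 8 tested genes are higher in DU145, PC3 or both, CCL2 is highest in VCAP, IL1A is near 0 throughout, and LIF is the only gene above 2 TPM in LNCaP.

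IL6, a cytokine that acts through the shared receptor IL6ST, was found in DU145 and PC3 with wide gaps between repeats. DU145 held 64.23 and 12.91 TPM, PC3 held 5.05 and 0.9, and the 6 samples of LNCaP, DUCAP and VCAP were listed at 0. The repeats stood 4.98-fold apart in DU145 and 5.61-fold apart in PC3, and every DU145 sample lay above every PC3 sample. The differences were 3.34 ± 0.45 for DU145 and PC3 against the other lines (SE, adjusted p = 0.00019, limma) and −3.15 ± 0.70 for PC3 against DU145 (SE, adjusted p = 0.0062, limma). Without PC3 repeat 2 the second difference was −2.32 and no longer passed (adjusted p = 0.060, limma), and without DU145 repeat 1 it was −2.04. In both cases a single sample stands for a line and is taken to vary like the others.

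LIF, which signals through LIFR and IL6ST, was the most abundant of the 10 transcripts in PC3 and the only one found at a level above 2 TPM in LNCaP. PC3 held 92.72 and 102 TPM, DU145 held 53.93 and 58.03, and LNCaP held 2.98 and 2.34. VCAP stood at 0.26 and 0.01 TPM and DUCAP at 0.16 and 0.05. PC3, DU145 and LNCaP followed each other in that order with no overlap. The difference of DU145 and PC3 against the other lines, 5.50 ± 0.11 (SE, adjusted p = 8.7e-09, limma), was the widest of the 8 tested, and PC3 exceeded DU145 by 0.79 ± 0.18 (SE, adjusted p = 0.0062, limma). With 0.1 in place of 1 added to the TPM, the latter was not called (adjusted p = 0.24, limma). The LIF levels of DUCAP and VCAP overlapped.

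CSF2, a growth factor for granulocytes and macrophages, was low and variable. DU145 held 0.34 and 3.94 TPM, PC3 held 1.07 and 1.33, and the 6 samples of LNCaP, DUCAP and VCAP were listed at 0. The DU145 repeats lay on either side of PC3, with no call between both lines (−0.23 ± 0.48, SE, adjusted p = 0.73, limma). That difference was −1.17 without DU145 repeat 1 and 0.71 without repeat 2. DU145 and PC3 exceeded the other lines by 1.25 ± 0.31 (SE, adjusted p = 0.0059, limma), and by 1.72 and 0.78 when DU145 repeat 1 or repeat 2 was left out.

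IL1B, the precursor of a secreted inducer of NF-kB, exceeded 1 TPM in PC3 and in no other line. PC3 held 26.38 and 34.19 TPM, LNCaP 0.21 and 0.25, and DU145 0.1 and 0, and DUCAP and VCAP were listed at 0. DU145 lay below LNCaP, so the difference of 2.41 ± 0.095 for both lines against the other 3 (SE, adjusted p = 1.4e-07, limma) is carried by PC3. PC3 exceeded DU145 by 4.89 ± 0.15 (SE, adjusted p = 1.8e-07, limma). Its neighbour IL1A, which binds the same receptor, stood at 0.14 and 0.1 TPM in PC3, at 0.02 in LNCaP repeat 1 and at 0 in every other sample, and was not tested.

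Summed over the 10 genes, DU145 held 196 and 163 TPM and PC3 held 171 and 190, against 0.19 to 3.41 in the 6 samples of LNCaP, DUCAP and VCAP. The sums of DU145 and PC3 overlapped, but their makeup differed. LIF made up 27.6 and 35.6% of the sum in DU145 and 54.2 and 53.7% in PC3. IL6 made up 32.8% of it in DU145 repeat 1 and 7.92% in repeat 2, and IL1B 15.4 and 18.0% in PC3.

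Of the 10 genes, 8 passed the filter of at least 1 TPM in at least 2 samples. Of those, 7 passed only through DU145 or PC3, with fewer than 2 of the 6 samples of the other lines at 1 TPM. Their counts, differences and adjusted p-values against the other lines are therefore a description and not support for a difference. IL1B and CSF2 passed only through PC3 and IL6 only through DU145, so the same holds of their differences between these lines. All 8 were called across the 5 lines (moderated F test, adjusted p under 0.05), where 90.8% of the tested genes were. All 8 were called higher in the mean of DU145 and PC3 than in the other lines, IL1B through PC3 alone. Of the tested genes, 51.9% were called higher and 22.5% lower. Over all tested genes this comparison had a median of 0.40, which fell to 0.02 after median-ratio scaling and to −0.08 after quantile normalization. The share of called genes that were higher went from 69.77% to 52.06 and 46.24% under these scalings. The 8 members kept their sign and their call under both. Between PC3 and DU145, 3 genes were higher (CXCL1, LIF and IL1B) against 25.5% of the tested genes, and 3 were lower (CXCL8, CXCL2 and IL6) against 23.8%. Among LNCaP, DUCAP and VCAP, LIF was the single gene called (adjusted p = 7.03e-05, limma), where 67.6% of the tested genes were.

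**Figure D3:**
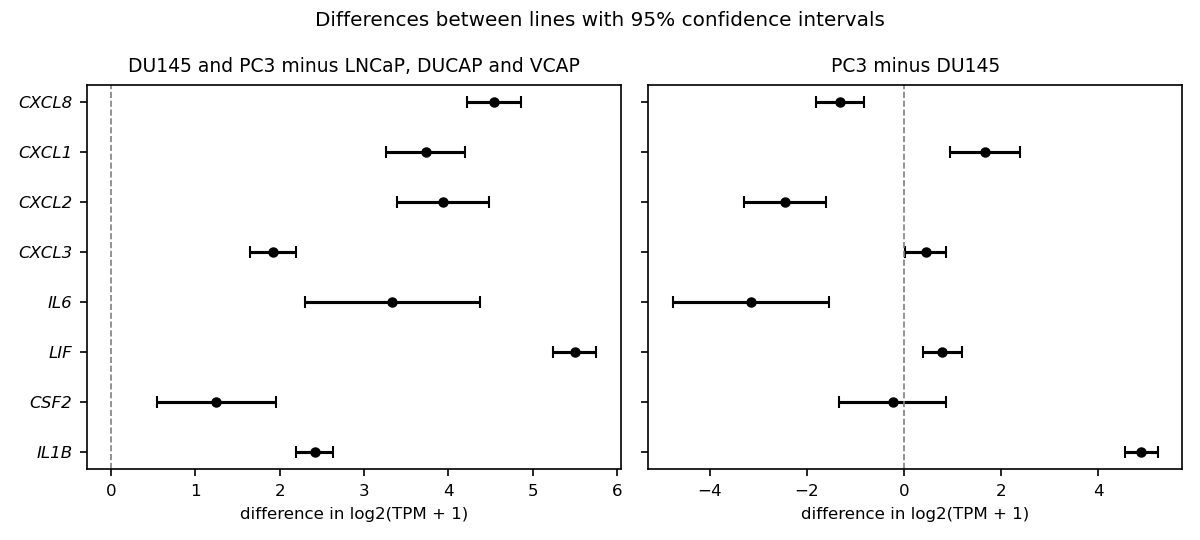
Differences in log2(TPM + 1) for the 8 tested genes with 95% confidence intervals (bars), for DU145 and PC3 against the other lines (left) and PC3 against DU145 (right), with the dashed line at 0. All 8 lie above 0 on the left, and on the right CXCL8, CXCL2 and IL6 lie below 0, whereas CXCL1, LIF and IL1B lie above.

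Spread between the repeats was also read against that of all tested genes. Gaps are given as repeat 1 minus repeat 2 of log2(TPM + 1). The IL6 gap of 2.23 in DU145 was reached by 0.531% of the 17520 genes in that line, and the CSF2 gap of −1.88, in the other direction, by 1.06%. In PC3 the gaps of IL6 (1.67) and CXCL2 (1.33) were reached by 0.268 and 0.468%, and that of CXCL1 (−0.87) by 1.47%. Genes of the immediate-early kind, named after their values were seen, also differed: FOS was at 81.1 and 3.01 TPM in the DU145 repeats and at 196.27 and 18.39 in DUCAP, JUNB at 126.62 and 22.91 in DU145, and ZFP36 at 109.19 and 18.04 in DU145. Mitochondrial transcripts were at 22.5 and 15.3% in the DU145 repeats. The part of any of these in the IL6 and CSF2 gaps was not tested.

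The CXC chemokine genes lie together on chromosome 4 (GRCh38.p14), with CXCL8 first at chr4:73740569-73743716 and CXCL2 356 kb further on. CXCL6, 96.1 kb from the CXCL8 start, had the same order of lines as CXCL1 (128.8 kb), with 10.96 and 15.68 TPM in PC3, 1.32 and 1.07 in DU145 and 0 elsewhere. CXCL5 (255.1 kb) was at 2.32 and 3.96 TPM in DU145 and 0.76 and 0.43 in PC3, and lay between PPBP, listed at 0 in every sample, and CXCL3 (296.0 kb). The 6 genes of the cluster that passed the filter were at 0.16 TPM or less in LNCaP, DUCAP and VCAP, and DU145 and PC3 changed order along it. CXCL6 and CXCL5 also passed the filter only through DU145 or PC3, so their higher level there is a description. CXCL6 was higher in PC3 than in DU145 (2.69, adjusted p = 5.4e-06, limma). CXCL5 was lower there (−1.35), but it passed the filter only through DU145, so that direction is also a description.

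**Figure D4:**
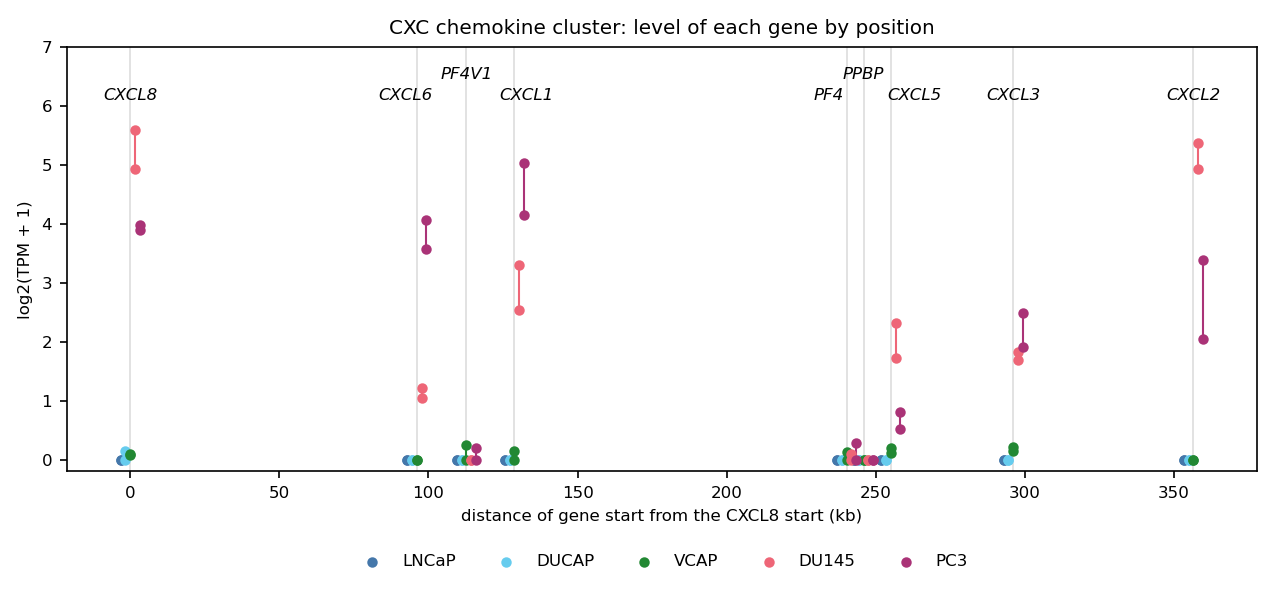
Levels as log2(TPM + 1) of the genes of the CXC cluster in each sample (points, colored by line, sideways offset so that lines can be told apart, vertical lines joining the repeats) against the distance of each gene start from the CXCL8 start in kb. Both DU145 points lie above both PC3 points for CXCL8, CXCL5 and CXCL2, and below them for CXCL6, CXCL1 and CXCL3, of which CXCL3 did not pass the test.

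IL1A and IL1B lie on chromosome 2 (chr2:112773925-112784493 and chr2:112829751-112836779). CCL2 is on chromosome 17 (chr17:34255285-34257203), LIF on chromosome 22 (chr22:30240453-30246759) and CSF2 on chromosome 5 (chr5:132073789-132076170). Of 25 listed neighbours of the 10 genes, 8 were tested. CXCL6, CXCL5 and STEAP1B passed only through DU145 or PC3 and are higher there for that reason, and of the other 5, 2 were called higher and 3 lower in DU145 and PC3, where 51.9 and 22.5% of all tested genes were. The neighbours of IL1A and IL1B were low in PC3 apart from IL37, at 1.44 and 0.98 TPM there and at most 0.16 elsewhere. IL1RN, the antagonist of the IL1 receptor, was at 10.29 and 13.77 TPM in LNCaP and 0.19 to 0.25 in DU145 and PC3. IL36G and IL36RN were likewise highest in LNCaP, at 1.01 and 2.31 and at 2.31 and 2.63 TPM. On chromosome 5 next to CSF2, IRF1 was called higher in DU145 and PC3 (2.19, adjusted p = 3.7e-07, limma). STEAP1B, a neighbour of IL6 (chr7:22727200-22731998), was at 1.82 and 2.93 TPM in DU145, at most 0.14 in any other sample, and TOMM7 was present in every sample at 163 TPM or more.

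The pathway around these genes was read against all tested genes, of which 51.9% were called higher and 22.5% lower in DU145 and PC3, and 33.9 and 39.4% after quantile normalization. The subunits RELB and NFKB2 were higher in DU145 and PC3 under every scaling tried, whereas the call or direction of RELA, REL and NFKB1 depended on the scaling. Differences of pathway genes are on the log2(TPM + 1) scale, and those given without a p had an adjusted p under 0.05 (limma). RELB held 17.71 and 19.97 TPM in DU145 and 13.51 and 8.14 in PC3, against 0.51 to 1.75 in the 6 samples of the other lines. NFKB2 held 39.04 and 47.75 TPM in DU145 and 24.01 and 22.43 in PC3, against 3.75 to 18.58. RELB (2.98 ± 0.15, SE) and NFKB2 (1.93 ± 0.12, SE) were called (adjusted p = 4.7e-07 and 1.9e-06, limma) and kept their call under every scaling. NFKB1 (0.78, adjusted p = 0.0037, limma) lost it under quantile normalization (0.22) and median-ratio scaling (0.35). RELA (0.36, adjusted p = 0.024, limma) turned to −0.18 under quantile normalization and to −0.10 after median-ratio scaling, and REL (0.16, adjusted p = 0.12, limma) turned to −0.31 and −0.19. Of the 5 subunits, 4 were called higher (against 51.9% of all tested genes), with a median of 0.78 beside 0.40 for all tested genes. After quantile normalization 2 were higher and 1 lower (33.9 and 39.4% of all tested genes), and after median-ratio scaling 2 were higher. PC3 was lower than DU145 in 4 of the 5 (23.8% of all tested genes), with a median of −0.87, and RELA did not pass. Without DU145 repeat 2 or without PC3 repeat 2, that count was 2.

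All 8 inhibitors and feedback genes were called higher in the mean of DU145 and PC3, against 51.9% of all tested genes, with a median of 1.88. For NFKBIZ and CYLD the groups overlapped. NFKBIZ in DU145 (9.13 and 2.18 TPM) lay below DUCAP (14.17 and 11.04), and CYLD in PC3 (10.17 and 8.32) lay below LNCaP (11.91 and 13.26). NFKBIZ alone lost its call under the 3 other scalings. BCL3, a nuclear member of the inhibitor family, held 115.77 and 53.45 TPM in DU145 and 24.17 and 23.92 in PC3, against 2.57 to 7.17 in the other lines. NFKBIE (1.99) and NFKBIB (1.94) followed. Between PC3 and DU145, 6 of the 8 were lower (23.8% of all tested genes), among them TNFAIP3 (−1.75), the deubiquitinase that ends the response. NFKBIZ was higher in PC3 (2.37).

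Of 16 tested kinases and adaptors, 13 were higher and 1 lower in DU145 and PC3, with a median of 0.91, where 51.9 and 22.5% of all tested genes were. After quantile normalization 8 were higher and 3 lower, where 33.9 and 39.4% of all tested genes were. The largest differences were in IKBKG (2.39), the regulatory subunit of the kinase complex, IRAK2 (2.36) and TRADD (2.14). TRADD in LNCaP (13.76 and 12.78 TPM) overlapped with PC3 (13.03 and 14.37), and it was at 1.21 TPM or less in DUCAP and VCAP. PC3 exceeded DU145 in MYD88 (1.35), the adaptor of the IL1 and Toll-like receptors, and fell below it in TRAF1 (−1.53).

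Of 13 tested upstream receptors, 5 (TNFRSF1B, CD40, TLR1, TLR2 and TLR6) passed the filter only through DU145 or PC3, which fixed their direction. Of the other 8, 5 were higher and 2 lower in DU145 and PC3, beside 51.9 and 22.5% of all tested genes. TNFRSF12A (6.04), TNFRSF1A (5.48) and CD40 (3.01) led. TNFRSF1A, the main TNF receptor, was at 70.36 and 71.95 TPM in LNCaP but at most 0.1 in DUCAP and VCAP, and it reached 285.66 and 205.57 in DU145. TNF itself, which was named after its values were seen, was at 0.09 TPM or less in every sample.

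The receptors that read the 10 products were fewer. Of 11 listed, 6 were tested, and CSF2RA passed the filter only through DU145. Of the other 5, 3 were higher and 1 lower in DU145 and PC3, where 51.9 and 22.5% of all tested genes were. After quantile normalization 3 of the 6, CSF2RA included, were higher and 2 lower, where 33.9 and 39.4% of all tested genes were. CXCR1 and CXCR2, receptors for the CXC chemokines, were at 0.15 TPM or less in every sample, and CCR2, CSF2RB and IL1R2 at 0.49 or less. IL6ST was higher in DU145 and PC3 (1.66, adjusted p = 7.5e-06, limma) and so was IL1RAP (1.25). IL1R1, the signaling receptor of IL1, ran against IL1B: it held 10.7 to 22.5 TPM in LNCaP, DUCAP and VCAP and 6.77 and 4.75 in DU145, but 0.48 and 0.71 in PC3, the line with IL1B. It was called lower in DU145 and PC3 (−2.25, adjusted p = 5.7e-07, limma) and lower in PC3 than in DU145 (−2.07, adjusted p = 3.6e-05, limma). CSF2RA, the specific CSF2 receptor chain, was at 3.55 and 2.35 TPM in DU145 and at 0 elsewhere.

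Of 16 tested other targets, 5 (LTB, IER3, IL23A, CSF1 and BCL2A1) passed the filter only through DU145 or PC3, which fixed their direction. Of the other 11, 10 were higher and 0 lower in DU145 and PC3, where 51.9 and 22.5% of all tested genes were. After quantile normalization 12 of the 16, these 5 included, were higher and 1 lower, where 33.9 and 39.4% of all tested genes were. IER3 (7.97), ICAM1 (5.77) and IL32 (3.33) led. PC3 was lower than DU145 in 11 of the 16 and higher in 0, with a median of −1.64, where 23.8 and 25.5% of all tested genes were. LTB, one of the 11, passed only through DU145. CSF1 was at 128.99 and 54.19 TPM in DU145 against 2.45 and 1.78 in PC3 (−4.77), and TNFAIP2 was also lower (−4.46).

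AP-1 and C/EBP factors act together with NF-kB at many cytokine promoters, and their transcripts varied in both directions. Of 10 factors, FOSL1 passed the filter only through DU145 and PC3. Of the other 9, 6 were higher and 1 lower there, where 51.9 and 22.5% of all tested genes were. Over all 10, FOSL1 included, 5 were higher and 1 lower after quantile normalization, where 33.9 and 39.4% of all tested genes were. FOSL1 showed the widest difference of these (8.16), with 803.98 and 637.84 TPM in PC3, 100.64 and 364.47 in DU145 and 0.15 to 0.47 in the other lines. CEBPB (2.69) and FOSL2 (2.35) followed. CEBPD was lower in PC3 than in DU145 (−3.08), and FOSL1 was higher there (1.90, adjusted p = 0.012, limma), a call lost without either PC3 repeat. Of 8 regulators of mRNA decay, which act on AU-rich cytokine transcripts, 5 were higher and 1 lower in DU145 and PC3 (median 0.82), a share near the 51.9 and 22.5% of all tested genes. After quantile normalization 3 were higher and 2 lower, where 33.9 and 39.4% of all tested genes were. ZFP36L1 had the largest difference (4.55), followed by KHSRP (1.51) and ZFP36L2 (1.20). ZFP36 was the one regulator called between PC3 and DU145, where it was lower (−2.46, adjusted p = 0.029, limma). That call was lost without the filter, without DU145 repeat 1 (−1.19) and without any sample of LNCaP, VCAP or PC3.

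**Figure D5:**
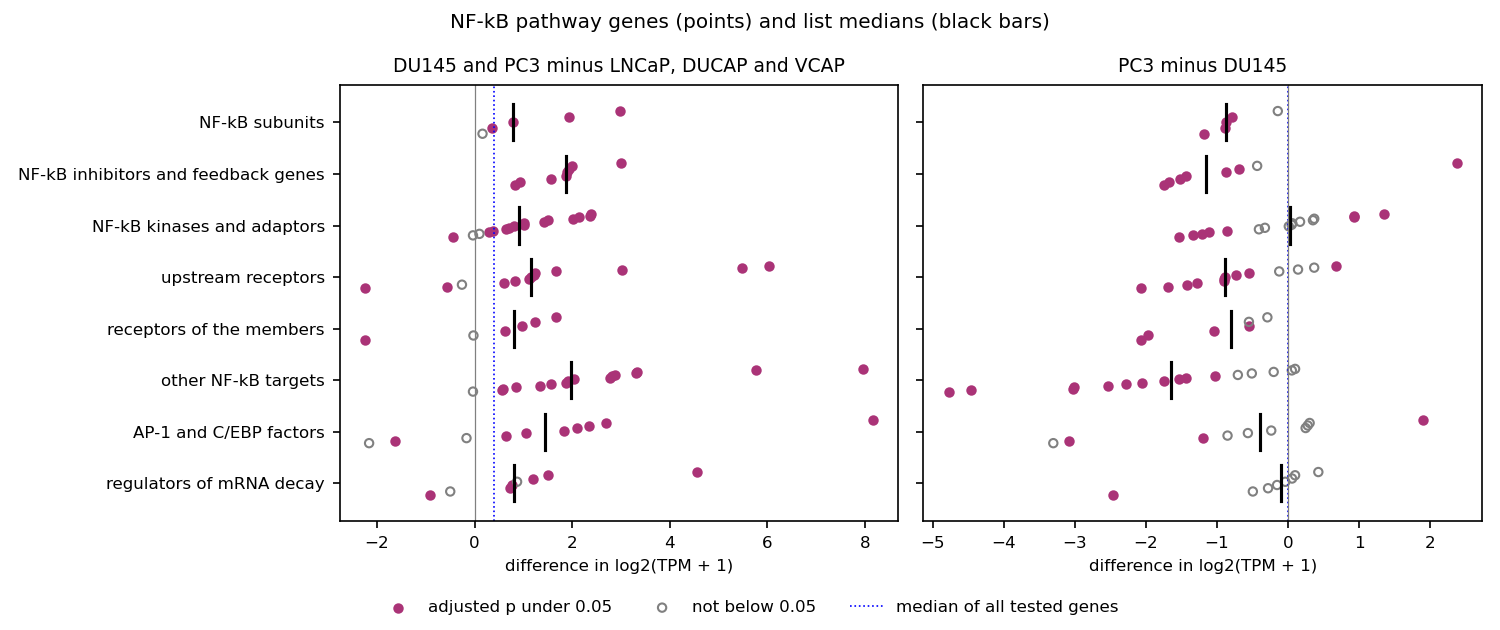
Differences in log2(TPM + 1) of the tested genes of 8 lists (points, filled where the adjusted p was under 0.05) for DU145 and PC3 against the other lines (left) and PC3 against DU145 (right), with list medians as black bars and the median of all tested genes as a dotted line. On the left most points lie to the right of the all-gene median of 0.40, 12 of them genes that passed the filter only through DU145 or PC3, and on the right most of the filled points of subunits, inhibitors and other targets lie below 0.

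Transcripts with a similar pattern over the 10 samples were picked by Pearson's r of log2(TPM + 1), which is given as a description, because the 10 points are pairs of repeats of 5 lines. Closest to CXCL8 were AREG, CAV2 and CGAS (r = 0.999 each), and among the members CXCL2 (0.966). The nearest to CXCL1 were AC104024.2 (0.996), PRKG1-AS1 (0.995) and ETV4 (0.995). CXCL2 was nearest to CCR10 (0.994), AC105052.3 (0.993) and SYNPO (0.993), and CXCL3 to CPA4 (0.995), FHL1 (0.994) and RND3 (0.994). IL6 was nearest to IGDCC4 (0.995), IL24 (0.993) and AL359834.1 (0.991). LIF was nearest to RHBDF2 (0.995), VIM (0.994) and SLC16A3 (0.994), IL1B to MUC5AC, LINC01807 and SULF2 (0.999 each), and CSF2 to KRTAP2-3 (0.993), TTC27 (0.971) and WDR46 (0.965). Between the 8 tested members, r ran from 0.096 (IL6 and IL1B) to 0.966 (CXCL8 and CXCL2).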

How the data were processed

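The authors trimmed reads with Trim Galore 0.6.5 after FastQC 0.11.9, mapped them with STAR 2.7.2b to GRCh38 with Ensembl and Gencode transcripts, and quantified genes with RSEM 1.3.3. They deposited TPM per sample in 1 table of 60642 symbols. RSEM had assigned reads that fit several genes, and merging of symbols was not stated. The tool versions come from the submitters' processing notes. The libraries were polyA-enriched and stranded. The repeat numbers of the labels were used, and the labels of DU145 and PC3 carry other culture numbers. No columns were identical.

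On log2(TPM + 1), limma 3.58.1 (R 4.3.3) was fitted to the 17520 genes that reached 1 TPM in 2 or more of the 10 samples. The model had a mean for each line, the prior variance followed a trend, and p-values were adjusted over all genes by Benjamini-Hochberg at 0.05. The spread was that between 2 repeats. Called means an adjusted p under 0.05. In a test on simulated data with 200 genes changed by 1.5 in DU145 and PC3 on the log2 scale, 93% were recovered, 0 with the wrong sign, and 5.58% of calls were false. The members, gene lists and rules were chosen with earlier results of these data known. Genes named are all members and subunits, up to 3 called genes per list by the largest difference of DU145 and PC3 and up to 2 by that of PC3 against DU145, chromosome neighbours with 1 TPM or more, and the 3 genes with the highest r per member. Others were named after their values were seen. Promoters and coordinates came from RefSeq (GRCh38.p14). Alternatives were another pseudocount, no filter, 3 scalings, no trend, a replicate block, and each sample left out. Python 3.11.15, numpy 2.4.6, pandas 2.3.3, Biopython 1.88 and matplotlib 3.10.9 were used.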

Additional observations from a re-analysis of the deposited data

How the results depend on the processing

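For DU145 and PC3 against the other lines, the 8 tested members kept their direction and their call in all 136 alternative values. For PC3 against DU145, 130 of 136 did. All members tested but LIF passed the filter only through DU145 or PC3, so for them the first count is a description and not support. The same holds of IL6, IL1B and CSF2 in the second count. CXCL3 was called after quantile normalization (0.47) and without PC3 repeat 2 (0.74), IL6 was not called without PC3 repeat 2, and LIF was not called at a pseudocount of 0.1. CSF2 ranged from −1.17 to 0.71 when DU145 repeats were left out, and reversed at 0.71. Among LNCaP, DUCAP and VCAP, 3 members (CXCL3, LIF and IL1B) were called at a pseudocount of 0.1 and 2 without the filter (CCL2 and LIF), and 1 to 2 when samples were left out, IL1B being added without either PC3 repeat. CSF2, called across the 5 lines at an adjusted p of 0.0446 (limma), lost that call under 2 scalings, without the filter, and without any one sample of LNCaP, DUCAP, VCAP or PC3. With no filter all 10 members were called in the first comparison, CCL2 as lower. The cause of these changes was not tested.

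A fit with the repeat number as a replicate block called 8 members across the lines, 8 in DU145 and PC3, 6 in PC3 against DU145 and 1 among the other lines, as without it. Over 10 pairs of lines, deviations of same-numbered samples correlated from −0.191 to 0.249, with a mean of 0.00922. The mean shows no common pairing by repeat number, but it cannot exclude pairing between some lines. Pairing by culture number was not examined. TPM keep no depth, so the precision at low levels, such as those of CCL2, IL1A and CSF2, is unknown.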
